A study of Gossypium hirsutum with 8 samples.

Results

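The comparison described here is that of the first leaf of upland cotton (Gossypium hirsutum, cultivar Sicot 71) after 24 h of root flooding with the first leaf of unflooded plants. It rests on 4 of the 8 arrays of the series, chosen by their titles: 2 arrays of flooded leaf and 2 of control leaf. The plants stood in soil in a glasshouse and had reached the 2-leaf stage. Flooding covered the roots up to the hypocotyl, and the labels do not place the leaf under water. Control plants were left under normal watering. Their sample labels give no hour of harvest, while the design text has control plants sampled at both 4 and 24 h. The labels call the 2 arrays of a group biological replicates, without the number of plants behind each, so the p-values measure only the spread between the arrays. The other 4 arrays hold roots and enter no result below apart from 1 alternative estimate of the variance.

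Waterlogged roots lose oxygen, and the shoot responds although it still has air. Signals known to pass between root and shoot under flooding include ethylene and its precursor ACC, abscisic acid, and altered water and nutrient supply. Leaves of flooded plants are known for slower expansion, closed stomata and, in many species, anthocyanin pigment. Leaf expansion needs loosening of cell walls, ordered microtubules and protein synthesis, so genes of these processes are described first, then transport, hormones, secondary metabolism and signalling.

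Transcripts were read on the Affymetrix cotton array, in which a probe set is a group of short oligonucleotides summarised as 1 value. A probe set can read more than 1 transcript, and 46 of those tested were annotated to several genes. Values are log2 signals, so a difference of 1 is a 2-fold change. Array medians lay between 5.33 and 5.42. The 2 flooded arrays correlated at r = 0.994 across probe sets and the 2 controls at r = 0.984, against 0.966 to 0.972 between groups. The control pair also differed more (root mean square SD 0.315 against 0.193), so a large fall often starts from 2 unlike control values. RCA1, rubisco activase of the Calvin cycle, ranked between 3 and 6 of 23977 probe sets on each array, as a leaf label requires, and read 14.51 and 14.60 in control and 14.62 and 14.66 in flooded leaf (limma adjusted p = 0.76). It was the only named member of the photosynthesis list.

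More transcripts differed between flooded and control first leaf than the named genes can show, and the largest differences were falls. The control labels give no hour of harvest, so a difference in that hour cannot be told apart from flooding. Of 23977 probe sets, limma fitted on the leaf arrays alone called 2095 at an adjusted p under 0.05 (8.74%). Of these 1020 were higher (4.25%) and 1075 lower (4.48%) after flooding. Among called probe sets, 44 were at least 4-fold higher and 137 at least 4-fold lower, and 3 and 16 passed 8-fold. After centring each array on its median these counts were 57 and 111, and 3 and 13. The 5th percentile of all differences was -0.95, the median -0.04 and the 95th percentile 0.86. Calls sat among the brighter probe sets: 16% of the 11988 above the median mean level were called and 1.47% of the 11989 others. The plot of all probe sets shows the wider lower side.

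**Figure D1:**
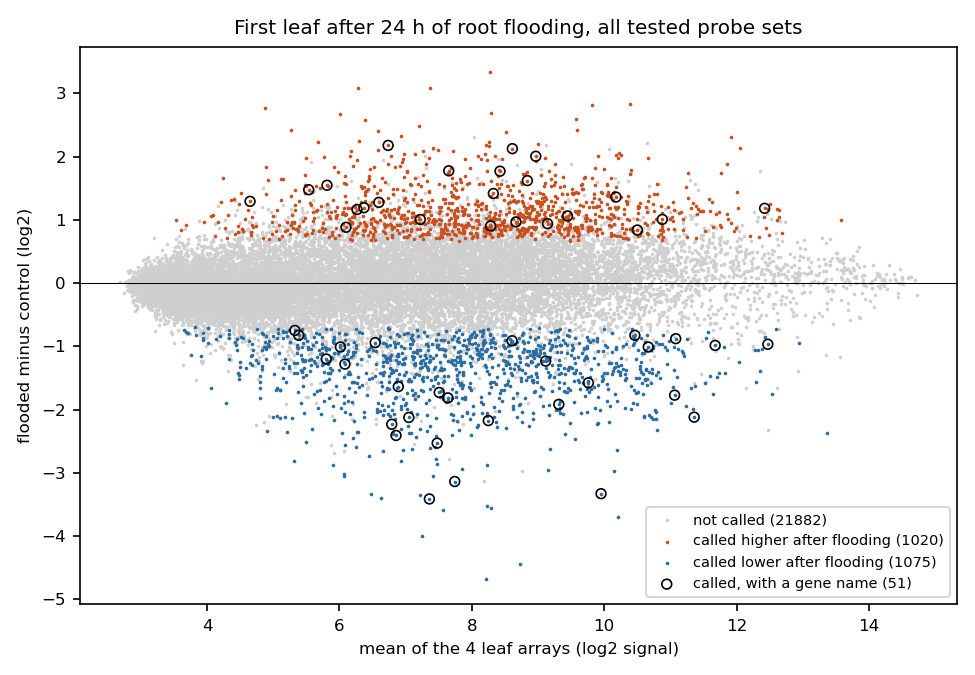
Difference between flooded and control first leaf (log2, y axis) against the mean log2 signal of the 4 leaf arrays (x axis) for 23977 probe sets. Orange points are the 1020 called higher and blue points the 1075 called lower in limma, grey points were not called, and black rings mark the 51 called probe sets with a gene name. The falls reach further from 0 than the rises.

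Every call below depends on both flooded arrays. Without flooded replicate 1 or without flooded replicate 2, limma called 0 probe sets (3253 and 3734 at an unadjusted p under 0.05). In these fits the spread within groups comes from the control pair alone. Without control replicate 1 and without control replicate 2 the calls numbered 3281 and 3693. The gene lists below are to be read against 4.25% of all probe sets called higher, 4.48% called lower and 8.74% either way, or 16% either way above the median level. These lists were chosen with earlier results of these data known, so their shares describe them and are no test of a list. A bound on the dim end comes from 52 reporter probe sets of the array, whose 95th percentile was 5.60 in control and 5.45 in flooded leaf, a level under which 51.9% and 51.2% of all probe sets lay.

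Only 324 probe sets (1.35%), for 246 genes, could be named by more than a locus number. Of these, 23 rose and 28 fell (15.7%), for 22 and 25 genes. Named probe sets were mostly above the median level (212 of 324), where 22.6% of them and 16% of all were called. The plot of single arrays gives the 12 largest differences each way among named genes that differ at least 2-fold with no overlap between groups, a size rule that 3.37% of all probe sets met upwards and 4.5% downwards. Non-overlap alone held for 25.5% upwards and 31% downwards. All but GHMYB38 were also called.

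**Figure D2:**
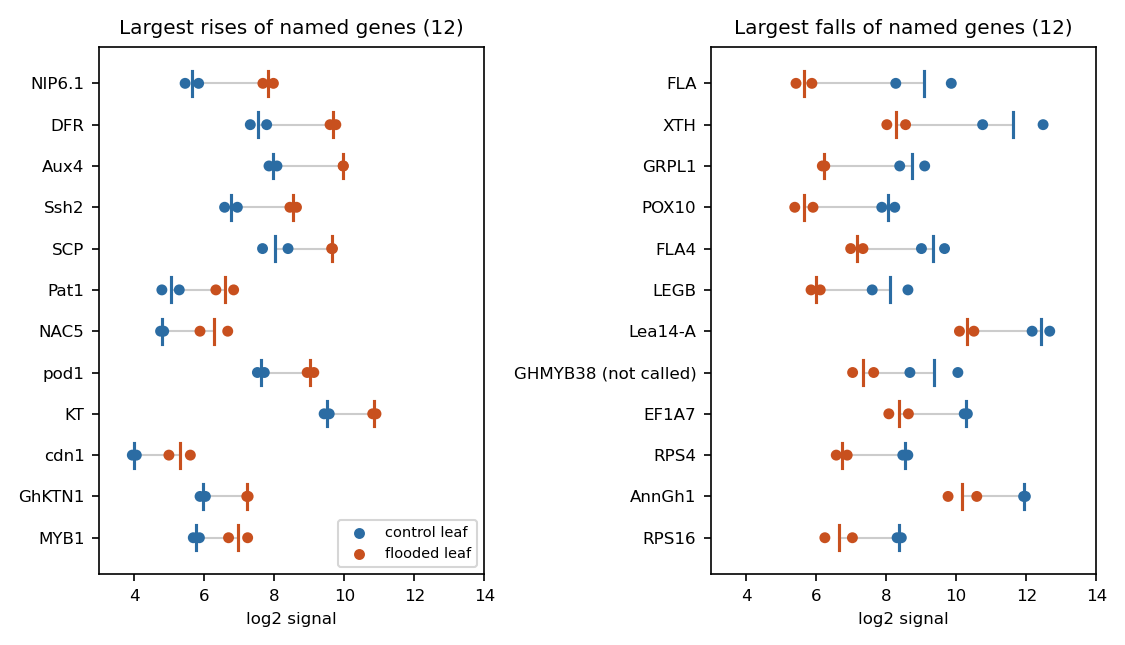
Log2 signal (x axis) on each control (blue) and flooded (orange) leaf array for the 12 named genes with the largest rises (left) and falls (right) under the size rule. Points are single arrays and vertical bars the group means (n = 2). Control points of FLA and XTH lie further apart than those of any gene on the left.

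Genes of cell wall proteins and a wall-loosening enzyme gave the largest falls with a name. FLA (LOC107954983), a fasciclin-like arabinogalactan protein anchored at the cell surface, read 8.27 and 9.86 in control leaf and 5.43 and 5.88 in flooded leaf. The controls differed from each other by more than the flooded arrays did, yet both lay far above them. The fall was 10.7-fold (log2 difference -3.41, SE 0.52, limma adjusted p = 0.023). XTH (LOC107886823), an enzyme that cuts and rejoins xyloglucan chains between cellulose fibrils, read 12.48 and 10.75 in control and 8.55 and 8.02 in flooded leaf. It thus fell but stayed above the flooded array medians of 5.33 and 5.34 (log2 difference -3.33, SE 0.56, limma adjusted p = 0.029). The size of these falls hung on the control arrays. Without control replicate 1 the difference of FLA was -4.21 and without control replicate 2 it was -2.62. XTH gave -2.47 and -4.19 in the same order. A second FLA probe set (8.52 and 10.10 against 5.80 and 6.54) fell by 3.14, with -3.93 and -2.34 in these fits, and its remaining probe set, at -2.66, was not called (6.05 and 8.76 against 4.85 and 4.64, limma adjusted p = 0.12).

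FLA4 and FLA12 of the same arabinogalactan family fell too. FLA4 stood at 9.01 and 9.67 in control and at 6.99 and 7.34 in flooded leaf (log2 difference -2.17, SE 0.27, limma adjusted p = 0.017). FLA12 stood at 10.84 and 10.26 against 8.67 and 9.28 (-1.58, SE 0.29). In both, the groups did not overlap, as held for 31% of all probe sets downwards. GRPL1 was read at 8.39 and 9.10 in control and at 6.25 and 6.18 in flooded leaf (-2.53, SE 0.26, limma adjusted p = 0.016). What GRPL1 encodes is uncertain: one of its synonyms, rgp1, is a usual name for a reversibly glycosylated polypeptide of wall polysaccharide synthesis, while the letters GRP often stand for glycine-rich protein. A second GRPL1 probe set fell by 2.23 on the log2 scale, and by 2.88 without control replicate 1 and 1.59 without control replicate 2.

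Across the list of arabinogalactan and structural wall proteins, there were 6 falls and 0 rises among 25 probe sets, with 19 not called. So 24% were called lower against 4.48% of all probe sets (median log2 difference -0.27, against -0.04 for all probe sets). Of the 25, 18 lay above the median level, where 16% of all probe sets were called in either direction. Without control replicate 1 there were 9 falls and 1 rise. The 6 belonged to 4 genes, and the other family members FLA2, FLA6, FLA7, FLA11, FLA13, FLA14, FLA15, FLA16 and FLA18 were not called. H6L, a proline-rich wall protein known from cotton fibre, lay on the other side of 0 (7.13 and 6.82 against 7.77 and 8.46, limma adjusted p = 0.062). In the list of wall-loosening and wall-cutting enzymes 1 of 17 fell, XTH, and 1 rose, a probe set of Pel (11.8% called, against 8.74% of all, median -0.23). Of the 17, 12 lay above the median level, where 16% of all were called. Without control replicate 2 the falls were 2. Pel, a pectate lyase that cleaves pectin, read 5.66 and 5.65 in control and 6.55 and 6.53 in flooded leaf, a small rise with almost no spread (log2 difference 0.88, SE 0.14, limma adjusted p = 0.026). The expansin EXPA3D stood at -0.47 and 0.58 in its 2 probe sets, neither called. ManA2, named for an endo-mannanase, fell by 1.23 (9.78 and 9.69 against 8.31 and 8.69).

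Cotton leaves bear hairs and veins, and in whole-leaf RNA fewer cells of a kind cannot be told apart from less RNA per cell. Among 26 probe sets fixed as fibre and trichome markers 0 rose and 4 fell, and those 4 were the FLA, FLA4 and FLA12 probe sets above. The other 22 were not called. The share called was 15.4%, against 8.74% of all probe sets. Of the 26, 18 lay above the median level, where 16% of all were called in either direction. Outside the FLA family, H6L stood at 1.14, Fb2 at 0.74, the lipid transfer gene LTP3 at 0.66 and 0.22, HOX3, a regulator of fibre growth, at 0.06, E6, a fibre protein gene, at -0.34 and the expansin EXP1 at -0.38. Without control replicate 1 and without control replicate 2, 1 marker rose. The summed linear signal of the whole list was 13797 and 15201 in control and 12711 and 14495 in flooded leaf, so the groups overlapped. Without the FLA genes it was 8337 and 7182 against 9380 and 10693, higher on both flooded arrays (12.81 to 13.38 on the log2 scale). H6L, E6, HOX3 and EXP1 read 8.46 or less on every array, so most of this sum came from Fb2 and LTP3. None of the 7 probe sets was called. The 3 probe sets for secondary wall and vascular tissue, of CelA1 and CTL1, summed to 736 and 489 against 845 and 1152, again higher on both flooded arrays, and none was called (1 without control replicate 1). The part of these cells in the wall gene result was not tested.

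Of 8 probe sets for ribosome and translation, for 7 genes, 7 fell and 0 rose, with a list median of -0.998. All 8 lay above the median level, where 16% of all probe sets were called in either direction. EF1A7, a copy of elongation factor 1-alpha, which brings aminoacyl-tRNA to the ribosome, read 10.32 and 10.23 in control and 8.08 and 8.63 in flooded leaf (log2 difference -1.92, SE 0.22, limma adjusted p = 0.016). Its second probe set fell by 0.83, with 10.92 and 10.83 against 10.001 and 10.10. Both therefore fell, by unequal amounts. EF1A1 and EF1A2, both bright, fell by 0.97 and 0.99. EF1A1 went from 13.03 and 12.88 to 11.84 and 12.14, a 1.95-fold fall. With a replicate block, EF1A1, EF1A2 and the smaller EF1A7 fall lost their calls.

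Ribosomal proteins followed. RPS4 read 8.62 and 8.47 in control leaf and 6.57 and 6.89 in flooded leaf, a 3.52-fold fall (SE 0.18 on the log2 scale, limma adjusted p = 0.016). RPS16 read 8.31 and 8.43 against 6.25 and 7.04 (log2 difference -1.73, SE 0.28). The bare symbols do not say whether these ribosomal proteins belong to the cytosol or to an organelle. RL37a, of the large subunit, fell by 1.01 at the edge of the threshold (limma adjusted p = 0.0497). It lost its call under the variance of all 8 arrays, median centring, array weights, a replicate block, and without control replicate 1. RL44 was the member not called (8.18 and 8.35 against 7.52 and 8.24). Flooded replicate 1 was the lower of the flooded arrays in all of these genes.

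Annexin AnnGh1 gave the largest fall of the cytoskeleton list, in which 2 of 15 probe sets fell and 0 rose (median -0.43). Of the 15, 13 lay above the median level, and the 13.3% called was under the 16% of all probe sets there. Annexins bind membranes in the presence of calcium. AnnGh1 read 11.97 and 11.92 in control and 9.77 and 10.59 in flooded leaf (log2 difference -1.77, SE 0.29, limma adjusted p = 0.026). The controls agreed closely and the flooded arrays less so. The beta-tubulin BTub4, a building block of microtubules, fell on a narrow spread (6.499 and 6.54 against 5.53 and 5.49, log2 difference -1.01, SE 0.14). The alpha-tubulins ATub3 and TubA2 stood at -0.97 and -0.56 and were not called (limma adjusted p = 0.063 and 0.074). GhKTN1, a katanin that severs microtubules and was not matched to the list, rose from 5.88 and 6.03 to 7.25 and 7.22 (log2 difference 1.28, SE 0.15, limma adjusted p = 0.017). Without control replicate 1, 2 members of the cytoskeleton list rose.

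Transport genes included the largest rise of a named gene. NIP6.1 (LOC107906429), a nodulin-26-like intrinsic protein whose Arabidopsis counterpart carries boric acid in shoots, read 5.45 and 5.84 in control and 7.98 and 7.68 in flooded leaf. The controls sat on either side of the reporter bound of control leaf and the flooded arrays well above it. The rise was 4.52-fold (log2 difference 2.18, SE 0.20, limma adjusted p = 0.016). MFS, of the major facilitator superfamily of membrane carriers, rose from an already bright level (11.93 and 11.73 against 12.99 and 13.04, log2 difference 1.18, SE 0.16). The list of aquaporins and transporters had 3 rises and 0 falls among 4 probe sets (75% called higher, against 4.25% of all). All 4 lay above the median level, where 16% of all probe sets were called in either direction. The third rise was Pat1 (4.79 and 5.29 against 6.84 and 6.33), whose control level lay under the reporter bound. Its symbol has more than 1 use, so its place in the list is uncertain. The vacuolar sodium/proton exchanger NHX1 was not called (0.28). KT, whose role is not given here, rose by 1.36 with arrays at 9.42 and 9.57 against 10.90 and 10.81.

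In the energy exchange of mitochondria, ANT1, an ADP/ATP carrier, fell in 1 of its 3 probe sets (11.57 and 11.47 against 10.63 and 10.65, log2 difference -0.88, SE 0.14). Its other probe sets stood at -0.71 and 0.54. The alternative oxidase AOX1 was dim in both groups (4.12 and 4.46 against 4.11 and 4.29) and not called. So were both probe sets of the sucrose synthase SusA1, and 0 of the 5 probe sets of the sucrose and starch list passed.

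Aux4, a gene of the auxin-responsive Aux/IAA type by its symbol, gave the smallest adjusted p of any named gene. One probe set read 8.08 and 7.85 in control and 9.97 and 9.97 in flooded leaf (log2 difference 2.01, SE 0.16, limma adjusted p = 0.015). Another read 7.74 and 7.34 against 9.39 and 9.24 (1.77, SE 0.19). Its 2 remaining probe sets, at 3.22 to 4.87 on all arrays, showed no such difference (-0.08 and 0.19). Aux2 and Aux3 lay at 0.68 and 0.76 without passing (limma adjusted p = 0.054 and 0.088). In the auxin list 2 of 8 probe sets rose, both of Aux4, and 0 fell (25%, against 4.25% of all called higher). Of the 8, 6 lay above the median level, where 16% of all probe sets were called in either direction.

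In the ethylene list 1 of 14 probe sets fell and 0 rose (7.14%, against 8.74% of all called), or 3 and 1 without control replicate 2. The fall was in ACS3, named for an ACC synthase, the enzyme that makes the ethylene precursor. It read 6.55 and 6.90 in control and 5.41 and 5.47 in flooded leaf (log2 difference -1.28, SE 0.18, limma adjusted p = 0.020), and the flooded level lay just under the reporter bound. One of the 2 genes called ACO1 stood at -1.14 (limma adjusted p = 0.11) and the other at 0.55 (limma adjusted p = 0.37). The ethylene response factor ERF8 stood at -0.84 (limma adjusted p = 0.052). None of the 3 gibberellin probe sets passed, and 1 fell without control replicate 2. The DELLA repressor GAI2 stood at -0.49, and the receptors GID1-2 and GID1-4 at -0.58 and 0.31.

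Both late embryogenesis abundant genes fell (100% called, against 4.48% of all called lower). Proteins of this name are known from drying seeds and water-stressed tissue. Lea14-A was bright in control leaf at 12.17 and 12.67 and read 10.09 and 10.50 after flooding (4.35-fold, SE 0.24 on the log2 scale, limma adjusted p = 0.016). Lea5-D read 7.38 and 8.04 against 6.18 and 5.96 (log2 difference -1.64, SE 0.25). The groups did not overlap in either gene, as held for 31% of all probe sets downwards. Both genes lay above the median level, where 16% of all probe sets were called in either direction. LEGB, the seed storage protein legumin B by name, read 8.62 and 7.60 in control and 5.86 and 6.12 in flooded leaf (-2.12, SE 0.35, limma adjusted p = 0.027). Its other probe set stayed under 3.7 on all arrays and was not called. Lox1, named for a lipoxygenase and the only member for abscisic acid and jasmonate, stood at 0.71 (limma adjusted p = 0.17). With 1 array left out, its difference ran from 0.34 to 1.07. Whether it acts in the jasmonate route is not known here.

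In the flavonoid and gossypol lists every called gene rose. DFR (LOC107957957), dihydroflavonol reductase, which commits flavonoids to anthocyanins and condensed tannins, read 7.78 and 7.32 in control and 9.76 and 9.59 in flooded leaf (log2 difference 2.13, SE 0.21, limma adjusted p = 0.016). CHS3, a chalcone synthase at the entry to the flavonoids, read 5.83 and 5.54 against 6.98 and 6.72 (1.16, SE 0.18, limma adjusted p = 0.025). These were the 2 rises among 9 flavonoid and lignin probe sets, with 0 falls and a list median of 0.13 (22.2% called higher, against 4.25% of all). The 4 probe sets of CHS2 lay between -0.50 and 0.16 and under 5 on all arrays, and CCoAMOT2 of lignin synthesis stood at -0.38.

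The gossypol list had a single member. The delta-cadinene synthase cdn1, first enzyme of the cotton pathway to gossypol, read 4.06 and 3.95 in control and 4.99 and 5.60 in flooded leaf (log2 difference 1.29, SE 0.24, limma adjusted p = 0.034). Its control level lay well under the reporter bound. The flooded arrays sat on either side of the reporter bound of flooded leaf, with their mean under it. This probe set was also not above the median level, so both the rise and its fold are uncertain. CPR1 and CPR2, named for the reductases that feed electrons to cytochrome P450 enzymes, rose by 1.01 and 1.06. CPR1 read 10.24 and 10.51 against 11.48 and 11.28. CPR2 read 8.69 and 9.14 against 10.05 and 9.90. The sterol methyltransferases SMT1 and SMT2-2 went the other way, by -0.91 and -0.83. The omega-3 desaturase FAD78-1A, of the type that makes trienoic fatty acids in plastids, fell by 0.94, the single call among 19 lipid probe sets (5.26%, against 8.74% of all). The call of SMT2-2 (limma adjusted p = 0.042) was lost with an intensity trend, after either rescaling, with a replicate block and with the variance of all 8 arrays.

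A pair of class III peroxidases, secreted enzymes that use hydrogen peroxide in the wall, moved in opposite directions. POX10 read 8.24 and 7.88 in control and 5.39 and 5.91 in flooded leaf (5.31-fold lower, SE 0.24 on the log2 scale, limma adjusted p = 0.016). The gene pod1 read 7.72 and 7.52 against 9.13 and 8.94 (log2 difference 1.42, SE 0.16, limma adjusted p = 0.016). Neither gene had overlapping groups, and non-overlap alone held for 31% of all probe sets downwards and 25.5% upwards. POX10 and pod1 were the only calls among 20 probe sets of peroxidases and other antioxidant enzymes (10%, against 8.74% of all), whose median was 0.05. CAT2, named for a catalase, read 14.08 and 14.23 against 14.45 and 14.43 and was not called, nor were the superoxide dismutases Mn-SOD and FeSOD.

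Of 36 transcription factor probe sets 3 rose and 0 fell in limma, and this share of 8.33% lay at the 8.74% of all probe sets. NAC5, of the NAC family known for roles in senescence and stress, read 4.75 and 4.84 in control and 6.67 and 5.88 in flooded leaf (log2 difference 1.48, SE 0.28, limma adjusted p = 0.038). MYB1 read 5.69 and 5.86 against 6.69 and 7.24 (1.19, SE 0.22). WRKY15 read 8.13 and 8.24 against 9.09 and 9.22 (0.97, SE 0.15). The NAC5 controls lay under the reporter bound, and those of MYB1 just above it. GHMYB38 met the size rule with a difference of -2.02 (10.05 and 8.68 against 7.04 and 7.64) but was not called (limma adjusted p = 0.061). The difference was -1.34 without control replicate 1 and -2.70 without control replicate 2. It was called when control replicate 1 or control replicate 2 was left out, with array weights, with an intensity trend and among the brighter probe sets alone, and its second, dim probe set stood at 0.43. Of the list, 4 fell without control replicate 2 and 1 without control replicate 1. DBP3b, named for a protein that binds dehydration-responsive elements and in no list, fell by 0.75. Its call was lost under both rescalings, an intensity trend, a replicate block, the variance of all 8 arrays and without control replicate 2.

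The signalling list had 1 rise and 1 fall among 21 probe sets (9.52%, against 8.74% of all), and without control replicate 2 it had 4 and 2. CBL2, a calcineurin B-like calcium sensor that binds kinases of the CIPK family, read 10.02 and 10.14 in control and 10.94 and 10.90 in flooded leaf (log2 difference 0.84, SE 0.15, limma adjusted p = 0.032). CBL3 stood at 0.89 without passing (limma adjusted p = 0.055). SOS2, a CIPK-type kinase known from salt tolerance in Arabidopsis, lay outside the list and rose by 0.94 (8.70 and 8.65 against 9.68 and 9.55). MPK3, a mitogen-activated protein kinase, fell in 1 of its 6 probe sets (6.67 and 6.14 against 5.44 and 4.97, log2 difference -1.20, limma adjusted p = 0.049). That call was lost after either rescaling of the arrays, with the variance of all 8 arrays and without control replicate 1, and the flooded level lay under the reporter bound. A brighter MPK3 probe set stood at -1.19 without passing (7.64 and 8.22 against 7.17 and 6.31, limma adjusted p = 0.098). The 6 probe sets ran from -1.20 to 0.16.

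Of the remaining large rises, Ssh2 read 6.58 and 6.95 in control and 8.45 and 8.63 in flooded leaf (log2 difference 1.78, SE 0.19). SCP read 7.67 and 8.39 against 9.66 and 9.64 (1.62, SE 0.26). CRK1 and GLU rose by 0.90 and 1.01. What these 4 symbols encode in cotton is not stated here.

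Where a gene was read by several probe sets, a call in one was rarely repeated in all. Of 52 named genes with at least 2 probe sets, 11 had a call, and in 1 of these, EF1A7, every probe set was called. No gene was called in both directions. The silent probe sets were often dim, as for XTH, where the second read 4.71 and 4.13 against 3.52 and 3.57 (log2 difference -0.87, limma adjusted p = 0.076). GRPL1 differed: a probe set above the reporter bound, at 6.57 and 6.25 against 6.86 and 6.84, lay at 0.44 while 2 others fell. Upland cotton carries an A and a D copy of most genes, and which copy or copies a probe set reads is not known here.

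**Figure D3:**
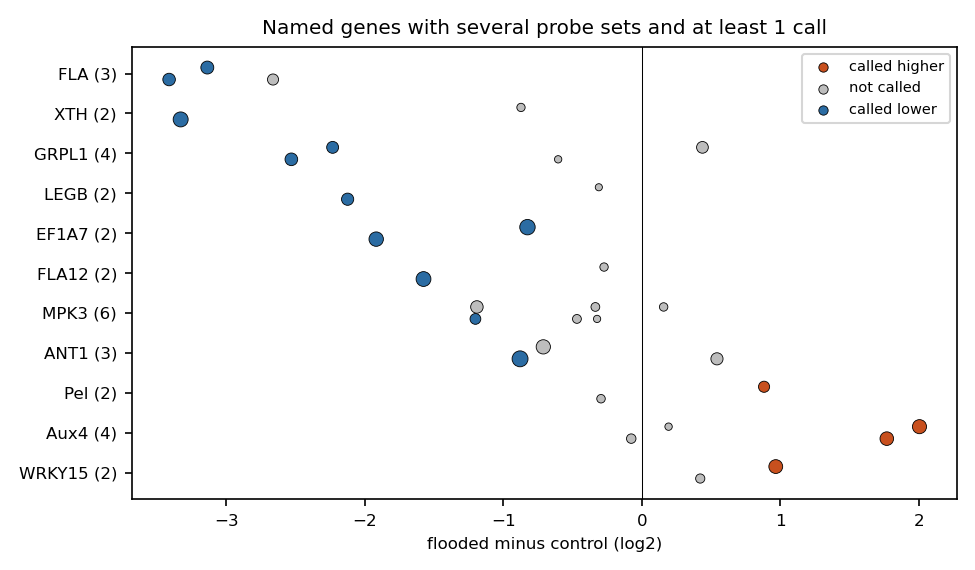
Difference between flooded and control first leaf (log2, x axis) for each probe set of the 11 named genes with several probe sets and at least 1 call. The number of probe sets is in brackets, orange and blue mark calls in limma, grey marks no call, and larger points have a higher mean signal. Points are offset vertically for legibility. Only EF1A7 is coloured throughout.

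The plot by gene list sets these groups side by side. Medians of the lists with 2 or more members ran from -1.88 for late embryogenesis abundant and -0.998 for ribosome and translation to 0.68 for auxin and 1.37 for aquaporins and transporters, against -0.04 over all probe sets. Lists of cellulose synthesis, gibberellin, and sucrose and starch had 0 calls in either direction in limma (1 cellulose probe set rose without control replicate 1).

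**Figure D4:**
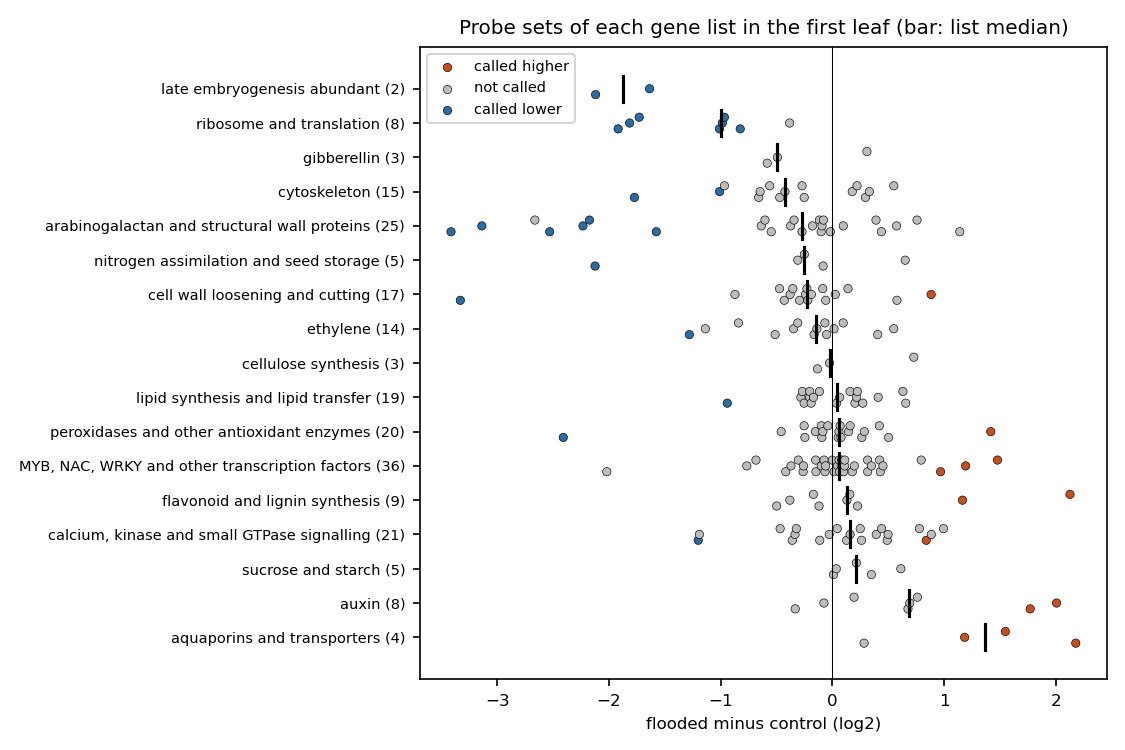
Difference between flooded and control first leaf (log2, x axis) for each probe set of the gene lists with 2 or more probe sets, ordered by list median (black bar). The number of probe sets is in brackets, orange marks probe sets called higher, blue those called lower and grey those not called. Points are offset vertically for legibility. In the ribosome and translation list 7 of 8 points are blue.

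The largest differences of all came from probe sets without a gene in the tables used. The largest fall had unlike arrays in both groups, 11.48 and 9.61 in control and 6.81 and 4.93 in flooded leaf (25.6-fold, log2 difference -4.68, limma adjusted p = 0.030). Leaving out 1 array moved this difference to between -5.61 and -3.74, and without control replicate 1 or flooded replicate 2 it was smaller than that of the next one. The next largest, at 21.9-fold, had close ones, 11.28 and 10.63 against 6.64 and 6.37 (limma adjusted p = 0.014). The largest rise was 10.1-fold, from 6.62 and 6.58 to 10.08 and 9.79 (limma adjusted p = 0.014). The next reached 8.45 and 9.38 from 5.03 and 6.62 (log2 difference 3.09, SE 0.57), with 2.30 without control replicate 1 and 3.89 without control replicate 2.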

How the data were processed

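The authors deposited log2 signals of 24132 probe sets on 8 arrays, and the 4 leaf columns were used (0 columns lacked a sample). Per the submitters' processing notes RMA and limma were used, without version or role. As the probes' own brightness was not used here, background correction could not be varied. With 2 arrays a group, a two-sided exact permutation test of 1 probe set cannot go below p = 0.333.

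The 103 AFFX and 52 RPTR probe sets were left out, and no filter on low values was set. Flooded minus control was fitted in limma 3.58.1 (R 4.3.3) on the leaf arrays alone (2 residual and 3.50 prior degrees of freedom), adjusted over 23977 probe sets by Benjamini-Hochberg and called at 0.05. The script was tested on simulated data. The size rule asked for at least a 2-fold difference and no overlap of groups.

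Genes were assigned with the array platform's annotation and RefSeq (Gossypium_hirsutum_v2.1). A single gene was given for 697 probe sets, more than 1 for 46, and no gene for 23234. Most names are synonyms held by RefSeq. The first was shown, except for 13 genes where it was a clone name, ambiguous or shared. Genes with a locus number alone have no description in the tables and are not named. The rule named the 12 largest rises and falls under the size rule, up to 4 list members by smallest p, and 2 unnamed probe sets each way. The comparison, the 22 lists (20 with a member, fermentation and heat shock with none) and the rule were chosen with earlier results of these data known. After values were seen, 3 list matches of another meaning were dropped, and the other called genes (CPR1, CPR2, GLU, CRK1, SOS2, SMT1, SMT2-2, ANT1, ManA2, DBP3b) and further list members were described.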

Additional observations from a re-analysis of the deposited data

How the results depend on the processing

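Calls numbered 2095 (1020 higher and 1075 lower). With 1 variance shared by all 8 arrays they were 1262 (530 and 732), 1215 of them among the 2095, and 36 of the 51 named calls were kept. Those lost were SCP, pod1, KT, GhKTN1, ACS3, WRKY15, CBL2, MPK3, FAD78-1A, SMT1, SMT2-2, CRK1, RL37a, DBP3b and SOS2. At an adjusted p under 0.10 the calls were 3730 (1929 and 1801). Leaving out 1 array each gave 0 to 3693 calls, 0 to 1824 higher and 0 to 1869 lower. An intensity trend, array weights, quantile normalization, median centring, the brighter probe sets alone and keeping the reporters gave 1950 to 2261 calls, and centring gave 1291 higher and 970 lower. Counts under the size rule (807 higher and 1078 lower) ran from 762 to 1028 and from 946 to 1247 over their alternatives. A replicate block gave 889 calls (326 and 563), and 25 of the 51 named calls were kept. Rises lost were Pat1, NAC5, cdn1, MYB1, Pel, WRKY15, CBL2, CPR1, CPR2, CRK1, GLU and SOS2. Falls lost were LEGB, EF1A1, EF1A2, the smaller EF1A7 fall, FLA12, BTub4, Lea5-D, FAD78-1A, SMT1, SMT2-2, ANT1, RL37a, ManA2 and DBP3b. Deviations of same-numbered arrays from their group means correlated at r = -0.19 across probe sets, so the numbers were not taken to pair the arrays. With the numbers crossed in the block, a setting chosen after seeing the data, the calls were 3142 (1559 and 1583). The cause of these shifts was not tested. Values near the reporter level have uncertain folds, and a call needs both flooded arrays.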

Other observations

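Probe sets whose identifiers start with Gra were called less often than those starting with Ghi (3.76% of 7068 against 10.8% of 16804) and were dimmer, with median levels of 4.06 and 6.38. Above the median mean level the shares were 13.5% of 1732 and 16.4% of 10186. The reporter probe sets, left out of the test, were slightly lower on the flooded arrays (median log2 difference -0.14, range -0.60 to 0.17). Among the called named probe sets, 7 had their lower group under the reporter bound: cdn1, NAC5 and Pat1 among the rises and ACS3, MPK3, SMT2-2 and DBP3b among the falls.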
